A study of Mus musculus with 3 samples.

Results

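The 10 genes described here belong to the unfolded protein response and the integrated stress response: *Ddit3*, *Atf4*, *Trib3*, *Chac1*, *Asns*, *Sesn2*, *Xbp1*, *Hspa5*, *Ppp1r15a* and *Herpud1*. They were taken by symbol from the 32285 genes counted. Their levels were followed in murine bone marrow-derived macrophages (BMDMs), which are grown from marrow in medium that holds the macrophage growth factor CSF1. The donors were female C3H/HeN mice aged 6 to 8 weeks. Lipoproteins purified from *Borrelia burgdorferi*, strain B31, were given at 1 µg/mL. LP1 denotes cells harvested after 1 hour, LP4 cells harvested after 4 hours and Ctrl the control cells given PBS. The labels state that marrow was pooled, and the study's methods that cells of 3 mice were treated independently in wells pooled afterwards, so it is not settled whether the wells were separate animals. The Ctrl cells were collected at 4 hours, so Ctrl is not an earlier time point than LP1 and LP4. Each condition is 1 single-cell RNA-Seq library made from 3 pooled wells, so no condition has a replicate. No test between conditions was therefore run, and every interval below is a 95% interval that covers counting error only.

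Cells answer a load of unfolded proteins in the endoplasmic reticulum (ER) through the sensors IRE1, ATF6 and PERK. IRE1 splices the *Xbp1* mRNA, ATF6 and XBP1 raise ER chaperones and the machinery that degrades misfolded proteins, and PERK phosphorylates the translation factor eIF2. PERK shares that step with kinases that sense amino acid shortage, viral RNA and low heme, and the resulting integrated stress response slows translation in general while it favors translation of ATF4, which in turn drives *Ddit3*, *Trib3*, *Chac1*, *Asns* and *Sesn2*. In macrophages, signals from Toll-like receptors, which sense bacterial lipoproteins, are known to engage IRE1 and XBP1.

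The main values were these. *Ppp1r15a* and *Ddit3* were lower in LP4 than in Ctrl, by 3.24-fold and 2.51-fold, and *Xbp1* was 1.47-fold higher. *Atf4* and *Hspa5* differed less from Ctrl, by log2 ratios of -0.01 and 0.19. In every library a few cells had many *Ddit3* UMIs (unique molecular identifiers, which count transcripts), up to 57, 43 and 32 in Ctrl, LP1 and LP4. The 20 highest cells held 25.3%, 24.0% and 20.2% of all *Ddit3* UMIs of the library. Such a share is also large for other sparse genes. The top 1% of LP4 cells held 28.8% of the UMIs of *Ddit3*, 26.6% of *Asns* and 45.5% of *Sesn2*. *Trib3*, *Sesn2*, *Atf4*, *Asns* and *Ppp1r15a* were also high in the 20 *Ddit3*-highest cells, while *Xbp1* and *Hspa5* stayed near the level of the other cells.

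The kept cells numbered 6071, 5065 and 4670 for Ctrl, LP1 and LP4, with 35688939, 52475723 and 61402275 UMIs and medians of 5133, 9343 and 11784 UMIs per cell. Levels are given as counts per 1000000 UMIs of the library (CPM). A size rule of 1.5-fold, applied to genes with a mean of at least 5 CPM over the libraries, marks a difference. Of the 12 macrophage markers all were detected in each library, at summed levels of 13799 to 14634 CPM, and small clusters of neutrophil-like, dendritic cell-like and stromal-like cells were present. In kept cells, the median share of mitochondrial UMIs came to 1.97% for Ctrl, 2.84% for LP1 and 3.17% for LP4.

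Promoter sequences are shown for the members that hold a motif named below within the 150 bases printed. That of *Ddit3* is shown too, since its few high cells are described in detail. Each run is the 150 bases just before the RefSeq start of the gene (GRCm38.p6, written 5′ to 3′ on the gene's strand, from the reference strain and not from C3H/HeN), with motifs in capitals.
Ppp1r15a (chr7:45526269-45526418, minus): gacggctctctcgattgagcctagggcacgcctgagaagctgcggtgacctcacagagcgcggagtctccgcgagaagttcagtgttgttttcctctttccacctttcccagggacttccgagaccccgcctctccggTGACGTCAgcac
Hspa5 (chr2:34771940-34772089, plus): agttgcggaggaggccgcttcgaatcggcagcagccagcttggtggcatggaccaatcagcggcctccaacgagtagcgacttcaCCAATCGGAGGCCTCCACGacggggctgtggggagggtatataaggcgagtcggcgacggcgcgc
Herpud1 (chr8:94386279-94386428, plus): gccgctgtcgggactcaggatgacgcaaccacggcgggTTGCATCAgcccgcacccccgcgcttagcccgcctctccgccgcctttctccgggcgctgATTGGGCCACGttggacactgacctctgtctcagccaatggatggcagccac
Asns (chr6:7693210-7693359, minus): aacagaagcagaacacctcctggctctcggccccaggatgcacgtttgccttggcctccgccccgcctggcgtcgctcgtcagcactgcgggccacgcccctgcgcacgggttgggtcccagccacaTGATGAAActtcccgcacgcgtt
Ddit3 (chr10:127290643-127290792, plus): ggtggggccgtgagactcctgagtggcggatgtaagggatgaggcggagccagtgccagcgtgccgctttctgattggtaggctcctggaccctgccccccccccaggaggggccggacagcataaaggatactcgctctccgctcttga

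The capitals mark 4 motifs, searched on both strands of the 300 bases from 250 before to 50 after the start of each gene. The ER stress response element, a CCAAT box and a CCACG box 9 bases apart, stood in *Hspa5* at -65 to -47 and in 0.137% of 27025 genes. The ER stress response element II, ATTGGNCCACG, stood in *Herpud1* at -52 to -42 and in 0.0444% of genes. The cAMP response element TGACGTCA, a site for proteins of the ATF and CREB family, stood in *Ppp1r15a* at -12 to -5 and in 2.03% of genes. The core of the element bound by ATF4 with C/EBP proteins, TGATGNAA, stood in 4.51% of genes and in 4 of the 10 members. These were *Asns* at -23 to -16, *Herpud1* at -112 to -105, *Chac1* at -193 to -186 and *Trib3* at 15 to 22 past the start, the last 3 on the strand opposite to the gene. The core TGACGTGG of the unfolded protein response element was in 0.714% of genes and in none of the members. *Ddit3*, *Atf4*, *Sesn2* and *Xbp1* held none of these letters in this window.

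After 1 hour, no member differed by 1.5-fold. Over all 9057 genes with at least 5 CPM, 4.17% were higher and 2.84% lower by 1.5-fold in LP1 than in Ctrl, and among the 7 members at that level 0 were higher and 0 were lower. *Trib3*, *Chac1* and *Sesn2* did not reach the minimum and are given by their values. The median log2 ratio of the 7 members was 0.02, beside -0.02 over all 9057 genes. After 4 hours, 19.1% of all genes were higher and 23.6% lower than in Ctrl, and 0 of the 7 members were higher and 2 lower. The median log2 ratio of the 7 was -0.20, beside -0.09 over all genes. From LP1 to LP4, 15.3% of all genes were higher and 19.2% lower, and 0 of 7 members were higher and the same 2 lower. With 7 genes, 2 lower is a share near that of all genes.

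**Figure D1:**
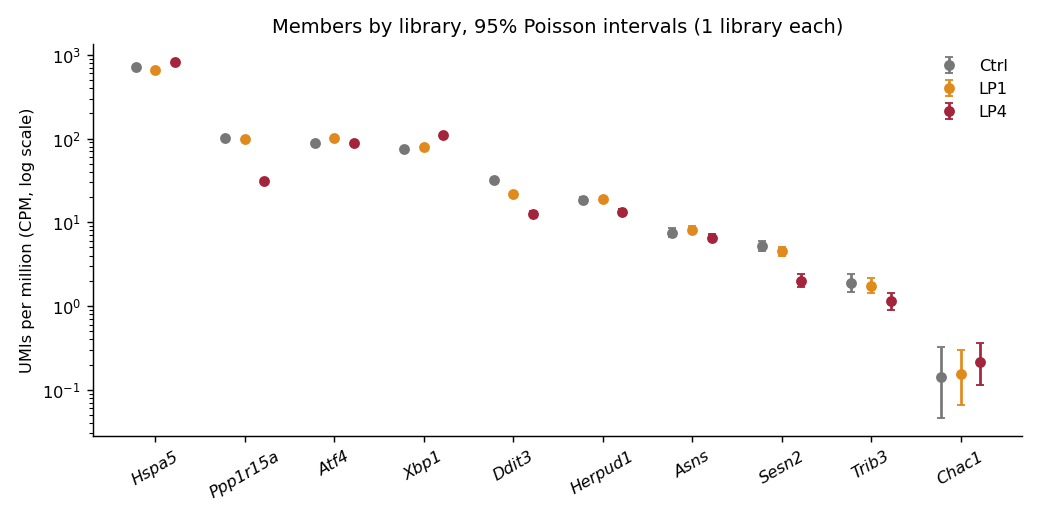
Level of each member in Ctrl, LP1 and LP4 (CPM on a log axis; bars are 95% Poisson intervals of 1 library each). *Ppp1r15a*, *Ddit3*, *Sesn2*, *Herpud1*, *Trib3*, *Asns* and *Atf4* have their lowest point in LP4, and *Xbp1*, *Hspa5* and *Chac1* their highest. For *Asns*, *Atf4* and *Chac1* the intervals of Ctrl and LP4 overlap.

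*Ppp1r15a* (chromosome 7, 45522916 to 45526268, minus strand, GRCm38) encodes GADD34, the stress-induced subunit that directs protein phosphatase 1 to eIF2 and so restores translation. It was at 100.5 CPM (97.2 to 104) in Ctrl, 99.7 CPM (97.0 to 102) in LP1 and 31.0 CPM (29.6 to 32.5) in LP4. LP1 and Ctrl overlapped in their counting intervals and LP4 lay far below both. The log2 ratio of LP4 to Ctrl was -1.69 (-1.78 to -1.61) and that of LP4 to LP1 was -1.68 (-1.76 to -1.61). After each cell was thinned to 2000 UMIs, the share of cells with a *Ppp1r15a* UMI came to 18.6% for Ctrl, 18.6% for LP1 and 6.49% (5.79 to 7.24) for LP4. Without thinning the shares were 39.3%, 56.2% and 26.5%. LP4 was the lowest by either count, although its cells were the deepest. Cells were also compared within the 6 clusters that held 50 cells or more of each condition. This leaves out the macrophage-like cluster F, with 62, 43 and 880 cells of Ctrl, LP1 and LP4, which held 18.8% of the LP4 cells, and where *Ppp1r15a* was at 140 CPM (96.4 to 197) in Ctrl and 51.1 CPM (46.2 to 56.4) in LP4. The 6 compared all had a lower level at LP4, by log2 ratios of -2.62 in the cell cycle-like cluster to -0.57 (-1.15 to 0.02) in the dendritic cell-like cluster.

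*Ddit3* (chromosome 10, 127290774 to 127296288, plus strand) encodes CHOP, a transcription factor of lasting ER stress that promotes cell death and raises *Ppp1r15a*. It was at 31.8 CPM (29.95 to 33.7) in Ctrl, 21.9 CPM (20.7 to 23.2) in LP1 and 12.7 CPM (11.8 to 13.6) in LP4. The intervals of the 3 libraries did not overlap, and the level was highest in Ctrl and lowest in LP4. The log2 ratio was -0.53 (-0.65 to -0.42) for LP1 over Ctrl, which is under 1.5-fold, -1.33 (-1.46 to -1.19) for LP4 over Ctrl and -0.79 (-0.92 to -0.66) for LP4 over LP1. The thinned share of cells with a *Ddit3* UMI came to 4.76% (4.23 to 5.33) for Ctrl, 3.33% (2.85 to 3.86) for LP1 and 2.12% (1.72 to 2.58) for LP4. The unthinned shares were 12.1%, 14.9% and 12.0%, an order that follows neither the CPM nor the median depth of the libraries. *Ddit3* was lower in LP4 than in Ctrl in 6 of 6 clusters, by -1.66 to -0.39, with intervals that held 0 in cluster D and in the dendritic cell-like cluster. A second feature row with the same symbol is an upstream open reading frame inside the gene and held 0 UMIs in kept cells. It shares 2925 bases of its strand with *Ddit3*, so reads there could not be given to 1 gene and the 0 does not measure it. Without the 20 cells of each library that are richest in *Ddit3*, the log2 ratio of LP4 to Ctrl was -1.23.

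*Atf4* (chromosome 15, 80255184 to 80257541, plus strand), the central transcription factor of the integrated stress response, is controlled mostly at translation, which these counts do not measure. Its mRNA was at 88.9 CPM (85.8 to 92.1) in Ctrl, 101 CPM (98.4 to 104) in LP1 and 88.4 CPM (86.0 to 90.7) in LP4. LP1 was highest, by a log2 ratio of 0.19 (0.12 to 0.25) to Ctrl, and Ctrl and LP4 did not differ beyond counting error (-0.01, -0.07 to 0.05). The thinned share of cells was 15.6%, 18.0% and 16.7% in Ctrl, LP1 and LP4. Of the 6 compared clusters, 4 were lower and 2 higher in LP4 than in Ctrl. Only cluster D, at -0.34 (-0.51 to -0.16), differed beyond counting error. Cluster F, which is not among the 6, was at 89.2 CPM (55.2 to 136) in Ctrl and 113 CPM (105 to 120) in LP4. The log2 ratio of LP4 to Ctrl turned to 0.16 with TMM scaling and to 0.20 with median of ratios scaling, which moved the median of all genes by 0.17 and 0.21.

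The other ATF4 targets among the members, *Sesn2*, *Asns*, *Trib3* and *Chac1*, were at low levels. *Sesn2* (chromosome 4, 132492032 to 132510501, minus strand) encodes sestrin 2, a leucine sensor that restrains mTORC1. It had 186, 236 and 123 UMIs in Ctrl, LP1 and LP4, or 5.21 CPM (4.49 to 6.02), 4.50 CPM (3.94 to 5.11) and 2.00 CPM (1.66 to 2.39). LP4 was below both other libraries, with a log2 ratio of -1.38 (-1.72 to -1.04) to Ctrl, though its mean of 3.90 CPM is under the minimum for a call. *Sesn2* shares 6089 bases of its strand with the gene *Gm12981*, so reads there could not be given to 1 gene.

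*Asns* (chromosome 6, 7675169 to 7693254, minus strand), asparagine synthetase, was at 7.54 CPM (6.66 to 8.49) in Ctrl, 8.10 CPM (7.35 to 8.91) in LP1 and 6.56 CPM (5.94 to 7.24) in LP4. LP4 was lower than LP1 by a log2 ratio of -0.30 (-0.50 to -0.10), and the interval against Ctrl held 0 (-0.43 to 0.03). Median of ratios scaling turned the latter ratio to 0.01. Levels were higher in the macrophage-like cluster D, led by DNA replication genes such as *Mcm3*, at 14.7, 16.0 and 12.4 CPM, and in the cell cycle-like cluster, at 13.0, 14.8 and 13.7 CPM.

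*Trib3* (chromosome 2, 152337422 to 152344032, minus strand), a pseudokinase that is induced by ATF4 and CHOP and restrains them, had 67, 92 and 70 UMIs, or 1.88 CPM (1.45 to 2.38), 1.75 CPM (1.41 to 2.15) and 1.14 CPM (0.889 to 1.44). The intervals of Ctrl and LP4 all but touched. The log2 ratio of LP4 to Ctrl was -0.72 (-1.22 to -0.21), on a mean under the minimum for a call. *Chac1* (chromosome 2, 119351229 to 119354381, plus strand), which degrades glutathione, had 5, 8 and 13 UMIs in all, and no difference was detectable at this depth. In LP1, 3 of its 8 UMIs came from the 25 neutrophil-like cells, and in LP4 6 of its 13 from the 29 such cells.

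The ER stress genes did not go one way. *Xbp1* (chromosome 11, 5520659 to 5525893, plus strand), whose spliced mRNA encodes the active factor, was at 74.1 CPM (71.3 to 77.0) in Ctrl, 79.8 CPM (77.4 to 82.3) in LP1 and 109 CPM (106 to 111) in LP4. The 3' tags do not tell spliced from unspliced mRNA. The level was lowest in Ctrl and highest in LP4, and the log2 ratio of LP4 to Ctrl was 0.55 (0.49 to 0.62), just under 1.5-fold. It passed 1.5-fold with TMM scaling (0.72), median of ratios scaling (0.76), the mean of cell shares (0.62) and macrophage-like clusters alone (0.65). The thinned share of cells was 14.0%, 14.3% and 20.1% (18.9 to 21.3) in Ctrl, LP1 and LP4, and 6 of 6 clusters were higher in LP4 than in Ctrl, by 0.26 to 0.87.

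*Hspa5* (chromosome 2, 34771970 to 34777547, plus strand) encodes BiP, the chief chaperone of the ER and a common readout of ER stress. It was at 715 CPM (706 to 724) in Ctrl, 653 CPM (646 to 660) in LP1 and 818 CPM (810 to 825) in LP4. LP1 was the lowest library and LP4 the highest, with log2 ratios to Ctrl of -0.13 (-0.15 to -0.11) and 0.19 (0.17 to 0.22), both far under 1.5-fold. The clusters differed in the size of the difference between LP4 and Ctrl. The log2 ratio was 0.90 (0.75 to 1.06) in the dendritic cell-like cluster and 0.59 (0.52 to 0.66) in macrophage-like cluster C, led by *Egr3*, while it was -0.03 (-0.07 to 0.02) in cluster B, which has no name. None of the compared clusters was lower beyond counting error. Cluster I, which has no name and is not among them, was lower in LP4. It was at 2814 CPM (2036 to 3790) on 16 cells of Ctrl and 1420 CPM (1138 to 1752) on 47 cells of LP4. Cluster C made up 29.3% of the Ctrl cells and 6.66% of the LP4 cells.

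*Herpud1* (chromosome 8, 94386438 to 94395377, plus strand), an ER membrane protein of the degradation machinery, was at 18.5 CPM (17.2 to 20.0) in Ctrl, 18.8 CPM (17.7 to 20.0) in LP1 and 13.3 CPM (12.4 to 14.3) in LP4. Ctrl and LP1 overlapped and LP4 was lower, with a log2 ratio to Ctrl of -0.48 (-0.63 to -0.33), under 1.5-fold. In cluster C the ratio was -1.35 (-1.95 to -0.80), and in the dendritic cell-like cluster, with 7 UMIs in Ctrl and 30 in LP4, it was 1.53 (0.32 to 2.97). In that cluster *Herpud1*, *Hspa5* and *Xbp1* (0.84, 0.29 to 1.42) were all higher in LP4, on 99 cells of Ctrl and 71 of LP4. *Herpud1* was also high in neutrophil-like cells, at 124, 106 and 74.7 CPM.

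**Figure D2:**
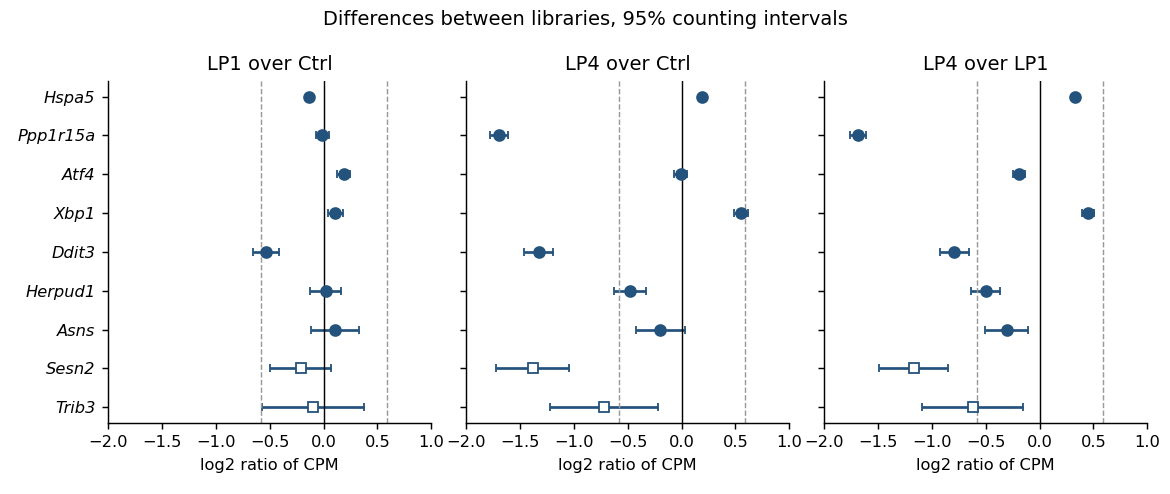
Log2 ratio of CPM for LP1 over Ctrl, LP4 over Ctrl and LP4 over LP1, with 95% counting intervals; dashed lines mark 1.5-fold, open squares are members under the minimum level, and *Chac1* is left out for its low counts. *Ppp1r15a* and *Ddit3* lie past the lower line in both comparisons with LP4, as do *Sesn2* and *Trib3*, which are under the minimum level. *Xbp1* lies just inside the upper line for LP4 over Ctrl.

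No cell type in these cultures is known to lack the members, so no background level for free RNA could be set from one. In 32, 25 and 29 neutrophil-like cells of Ctrl, LP1 and LP4, with medians of 2940, 5891 and 9303 UMIs, *Ppp1r15a* was at 9.56 CPM in Ctrl and 19.6 CPM in LP4, under the level of its library in all 3. *Ddit3* had a UMI in 1, 3 and 5 of these cells (3.13%, 12.0% and 17.2%), against unthinned shares of 12.1%, 14.9% and 12.0% of all cells. It was at 28.7, 21.3 and 27.5 CPM there, on 3, 3 and 7 UMIs, against 31.8, 21.9 and 12.7 CPM in the libraries. The LP4 interval (11.1 to 56.7) held the level of its library. In the same cells *Atf4* was at 86.1, 185 and 267 CPM, and *Sesn2* at 9.56, 21.3 and 43.2 CPM on 1, 3 and 11 UMIs. In LP4 both lay above the level of the library. In Ctrl, *Ddit3* was at 12.9 to 39.1 CPM in the 6 larger clusters, and how much of this low level is free RNA was not tested.

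The cells with most *Ddit3* stood far above this level. In Ctrl the highest cells had 57, 54, 26, 23, 22 and 21 *Ddit3* UMIs, in LP1 43, 36, 29, 26 and 25, and in LP4 32, 27 and 12. The ranks fell steeply, and only 8 cells of Ctrl (0.132%, 0.0569 to 0.260), 9 of LP1 (0.178%, 0.0813 to 0.337) and 3 of LP4 (0.0642%, 0.0132 to 0.188) had at least 10. Of the cells with a *Ddit3* UMI, 736 in Ctrl, 756 in LP1 and 560 in LP4, all but 135, 131 and 88 had exactly 1. The variance over the mean of thinned *Ddit3* counts was 2.43, 2.77 and 1.15 in the order Ctrl, LP1 and LP4, which ranked 77, 53 and 1038 among 8617 genes. For *Xbp1* it was 1.01, 1.06 and 1.04, close to the 1 of pure counting. For *Hspa5* it was 1.35, 1.27 and 1.31, and for *Ppp1r15a* 1.11, 1.07 and 1.18. Both were below *Ddit3* in Ctrl and LP1 but above it in LP4. High *Ddit3* cells were present in PBS-treated cells too. The 20 highest cells reach down to 4, 4 and 3 UMIs and the next cell outside had 3, 4 and 3. In all other cells *Ddit3* was at 23.8, 16.7 and 10.2 CPM in Ctrl, LP1 and LP4. The 20 highest cells were chosen by their *Ddit3* UMIs. Their levels of 1964, 1234 and 428 CPM are thus a description and do not compare the libraries.

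**Figure D3:**
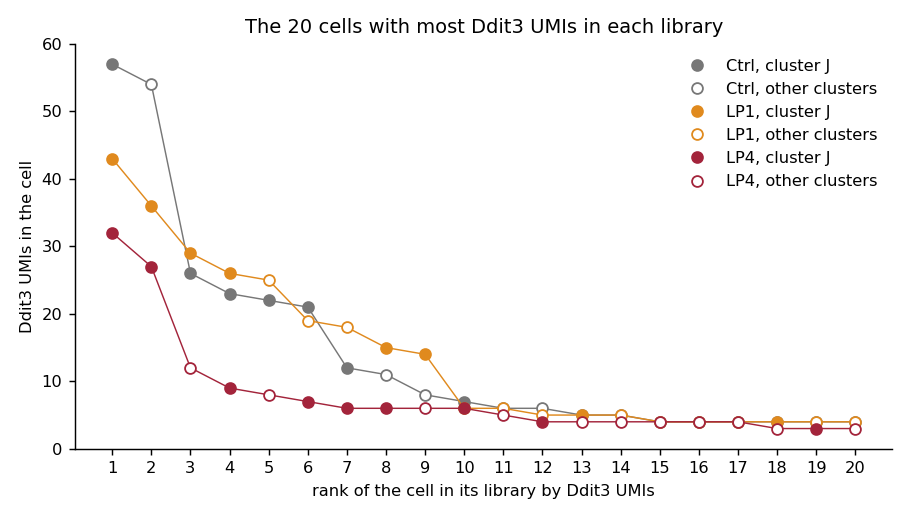
*Ddit3* UMIs in each of the 20 cells with most of them (rank on the x axis) in Ctrl, LP1 and LP4; filled points are cells of cluster J and open points cells of other clusters. The counts drop from 57, 43 and 32 UMIs to 4, 4 and 3 at rank 20, and 10, 10 and 9 of the 20 cells lie in cluster J.

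The 20 highest cells of each library were chosen by *Ddit3*, so its level there is only a description, but the other members were not used. *Trib3* was at 82.1 CPM (42.4 to 143) in these cells of Ctrl against 1.55 CPM in all others, at 80.5 CPM (47.7 to 127) against 1.42 CPM in LP1 and at 21.8 CPM (9.42 to 43.0) against 1.02 CPM in LP4. The 20 cells held 17.9%, 19.6% and 11.4% of all *Trib3* UMIs. The counts behind these values were 12, 18 and 8 UMIs in 8, 6 and 4 of the 20 cells. Among the members that the choice of cells did not use, *Trib3* had the largest ratio.

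*Atf4* was 6.86-fold higher in these cells than in all others in Ctrl (595 against 86.8 CPM), 6.10-fold in LP1 (604 against 98.9 CPM) and 5.78-fold in LP4 (497 against 85.9 CPM). It was seen in 16, 19 and 18 of the 20 cells. *Sesn2* was higher by 10.9-fold, 11.4-fold and 10.0-fold, on 8, 11 and 7 UMIs. *Asns* was higher by 7.46-fold, 3.35-fold and 6.44-fold, on 8, 6 and 15 UMIs, and 1 cell held 7 of the 15 in LP4. *Ppp1r15a* was at 308 CPM (225 to 412) against 99.6 CPM in Ctrl, 233 CPM (174 to 305) against 99.1 CPM in LP1 and 262 CPM (212 to 320) against 29.6 CPM in LP4. The order of the libraries in such cells depended on how many were taken: with 50 cells the levels were 208, 154 and 133 CPM, and with 10 cells 348, 294 and 415 CPM. In all other cells *Ppp1r15a* was lower in LP4.

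On the ER chaperone side, *Xbp1* and *Hspa5* did not follow. *Xbp1* was at 54.7, 53.7 and 98.2 CPM in the highest cells against 74.2, 79.9 and 109 CPM in the others, with intervals of the log2 ratio that held 0 in each library. *Hspa5* was at 910 CPM against 714 CPM in Ctrl (log2 ratio 0.35, 0.09 to 0.60), 572 against 653 CPM in LP1 and 851 against 817 CPM in LP4, and the last 2 did not differ beyond counting error. *Herpud1* had 1, 5 and 10 UMIs there, and the intervals of its log2 ratios of -1.44 (-6.75 to 1.04), 0.25 (-1.38 to 1.48) and 1.04 (-0.02 to 1.93) held 0. They are too wide to show whether *Herpud1* followed *Ddit3*. *Chac1*, a target of ATF4 and not of the chaperone side, had 0 UMIs in the 60 cells. This allows up to 20.5 CPM in Ctrl, 13.4 CPM in LP1 and 8.18 CPM in LP4. In the other cells it was at 0.14, 0.15 and 0.21 CPM, so the 0 cannot show whether *Chac1* followed *Ddit3*.

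Single cells varied in the members they carried. The top Ctrl cell, with 9750 UMIs, had 57 of *Ddit3*, 3 of *Trib3*, 4 of *Sesn2*, 4 of *Atf4*, 24 of *Hspa5* and 0 of *Herpud1*. The top LP1 cell, with 12091 UMIs, had 43 of *Ddit3*, 25 of *Atf4*, 0 of *Trib3*, 1 of *Hspa5* and 0 of *Xbp1*. The top LP4 cell, with 17080 UMIs, had 32 of *Ddit3*, 22 of *Atf4*, 11 of *Ppp1r15a*, 20 of *Hspa5* and 3 of *Xbp1*. *Hspa5* thus ranged from 1 to 24 UMIs among these top cells, and *Trib3* was at 0 in the 2 highest cells of both LP1 and LP4.

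Clustering gave a second grouping, made without the members and without the genes of the 7 pathway lists described below. The 55 cells of cluster J, 20 of Ctrl, 21 of LP1 and 14 of LP4, were led by *Ddit3* itself, a choice made after its values were seen. They made up at most 0.415% of a library and included 10, 10 and 9 of the 20 *Ddit3*-highest cells. The values below thus rest in part on the same cells. *Ddit3* was at 1659, 979 and 459 CPM in cluster J of Ctrl, LP1 and LP4 against 26.6, 18.4 and 11.03 CPM elsewhere. *Atf4* was 7.15-fold, 7.66-fold and 9.08-fold higher there, *Trib3* 42.3-fold, 29.4-fold and 30.3-fold, on 8, 9 and 7 UMIs, and *Ppp1r15a* 2.99-fold, 2.56-fold and 14.6-fold. *Asns* and *Sesn2* were less clear: on 2 and 3 UMIs in LP1 the intervals of their log2 ratios, -2.69 to 2.22 and -0.49 to 3.37, held 0. In LP4 the interval of *Sesn2*, on 2 UMIs, also held 0 (-0.89 to 4.06), and the 7 *Asns* UMIs came from 1 cell. *Hspa5* did not differ in Ctrl (720 against 715 CPM) and was lower in LP1 (471 against 653 CPM) and LP4 (615 against 818 CPM). The levels of *Ppp1r15a* in cluster J were 298 CPM (207 to 417), 254 CPM (188 to 335) and 432 CPM (350 to 527). The LP4 interval lay above that of LP1, but these intervals leave out differences between cells. The 97 UMIs of LP4 came from 14 cells with a median of 4.5 and a highest count of 20.

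**Figure D4:**
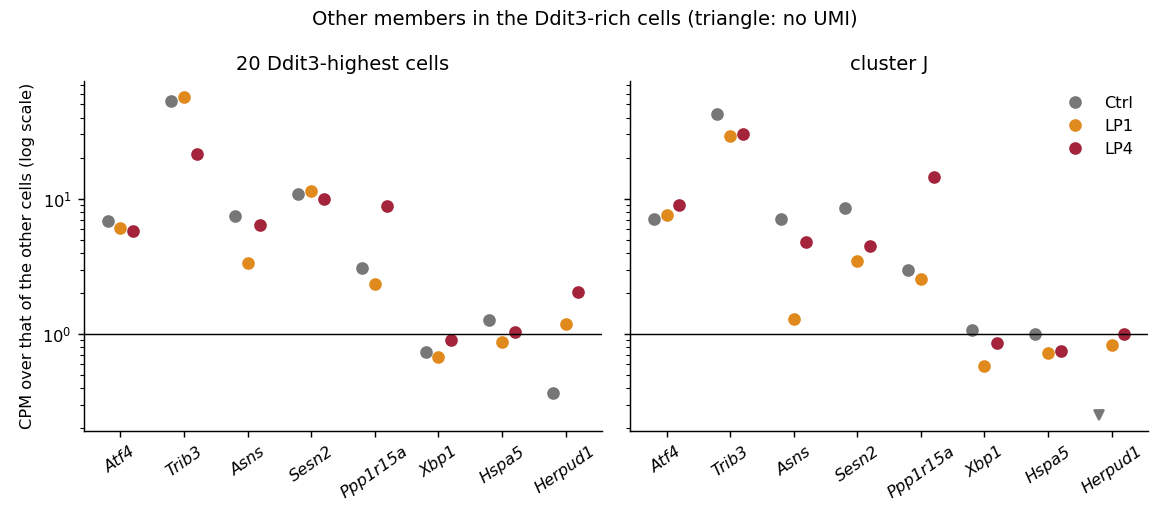
Level of 8 members in the 20 *Ddit3*-highest cells (left) and in cluster J (right) over that in the other cells of the library, on a log axis; points are Ctrl, LP1 and LP4, and the triangle is a library with no UMI of the gene. *Trib3* lies highest, at 21.5 to 56.8 on the left, and *Xbp1* and *Hspa5* lie between 0.583 and 1.27 in both panels.

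Other properties moved with these cells, and their part in the values above was not tested. Choosing cells by *Ddit3* UMIs favors deep cells, so the depth of the chosen cells is not independent of the choice. The *Ddit3*-highest cells had a median of 6358, 10188 and 17648 UMIs in Ctrl, LP1 and LP4, against 5130, 9341 and 11774 in the others. Their median mitochondrial share was lower, at 1.28%, 2.02% and 2.23% against 1.97%, 2.84% and 3.17%. Of the 12 macrophage markers 11, 12 and 12 had a UMI in them, and the summed level was 6953, 10564 and 8566 CPM against 13799, 14236 and 14634 CPM in all kept cells. In cluster J the sum was 5644, 8746 and 4694 CPM, and *C1qa*, *C1qb* and *C1qc* were at 0 in each library. Of the 13 neutrophil markers 4, 4 and 5 had a UMI in the highest cells, and *S100a9*, *Ngp* and *Mpo* were among those at 0. The 13 summed to 157, 174 and 243 CPM there, against 621, 521 and 848 CPM in all kept cells. The 9 stromal markers were at 0 in the highest cells of Ctrl and LP1 and summed to 379 CPM in LP4, where 1 of the 20 was a stromal-like cell. The cell cycle markers summed to 1177, 1722 and 1102 CPM, against 677, 801 and 680 CPM in all kept cells, but only 167, 67.3 and 436 CPM in cluster J.

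Besides *Atf4*, the genes that led the *Ddit3*-highest cells in all 3 libraries, among 1094 with at least 50 CPM there and a UMI in 10 or more of the 20 cells, were *Clba1*, *Txnip*, *Plin2*, *Rgs1*, *Ndrg1*, *Hspa9*, *Rassf1*, *Gadd45b* and *Sqstm1*. This minimum was set inside the cells where the genes are then high, so the ratios are a description. *Txnip*, which binds thioredoxin and curbs glucose uptake, was 18.5-fold, 19.0-fold and 5.10-fold higher in them in Ctrl, LP1 and LP4. *Plin2*, which coats lipid droplets, was 4.68-fold, 4.37-fold and 4.88-fold higher, and *Sqstm1*, an autophagy receptor, 3.49-fold, 3.15-fold and 3.46-fold. *Rgs1*, a regulator of G protein signals, was 4.27-fold, 5.42-fold and 53.6-fold higher. *Atf3* and *Atf5*, factors of the same response that were picked after their values were seen, were 4.37-fold, 2.93-fold and 2.88-fold and 5.96-fold, 3.88-fold and 4.56-fold higher.

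Across all cells, likeness to *Ddit3* was weak. Among 3128 genes with at least 50 CPM, the 10 with the largest smallest correlation over the 3 libraries were *Rgs1*, *Rgs2*, *Lgals3*, *Plin2*, *Sqstm1*, *Ubb*, *Atf4*, *Cstb*, *Gstm1* and *Irf7*. Pearson's r of log counts, over 5949, 5052 and 4625 cells thinned to 2000 UMIs, was 0.06, 0.05 and 0.09 for *Rgs1* and 0.07, 0.09 and 0.03 for *Atf4*. The cells of a library share its preparation, and values this small in sparse counts are no finding. Among the members, the pair with the largest smallest r was *Ddit3* with *Atf4*, followed by *Xbp1* with *Hspa5* at 0.02, 0.05 and 0.03.

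The wider pathway was read from 7 lists with 149 genes, 129 of them at 5 CPM or more. In LP1, 11 of the 129 were higher (8.53%) and 2 lower (1.55%) by 1.5-fold than in Ctrl, beside the 4.17% and 2.84% of all genes. In LP4 28 were higher than in Ctrl (21.7%) and 18 lower (14.0%), beside 19.1% and 23.6%. The counts by list below, of 12 to 23 genes each, are read against the same shares. From LP1 to LP4, 12 were higher (9.30%) and 18 lower (14.0%), beside 15.3% and 19.2%. The lists were written by function, with earlier results of these data known. The split depends on scaling, for the lists as for all genes. TMM gave 35 higher and 8 lower in LP4 over Ctrl, beside 25.3% and 16.7% of all genes, and 14 and 13 in LP4 over LP1, beside 18.2% and 15.5%. Median of ratios scaling gave 36 and 8, beside 26.7% and 15.4%, and 15 and 12, beside 19.4% and 14.4%.

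**Figure D5:**
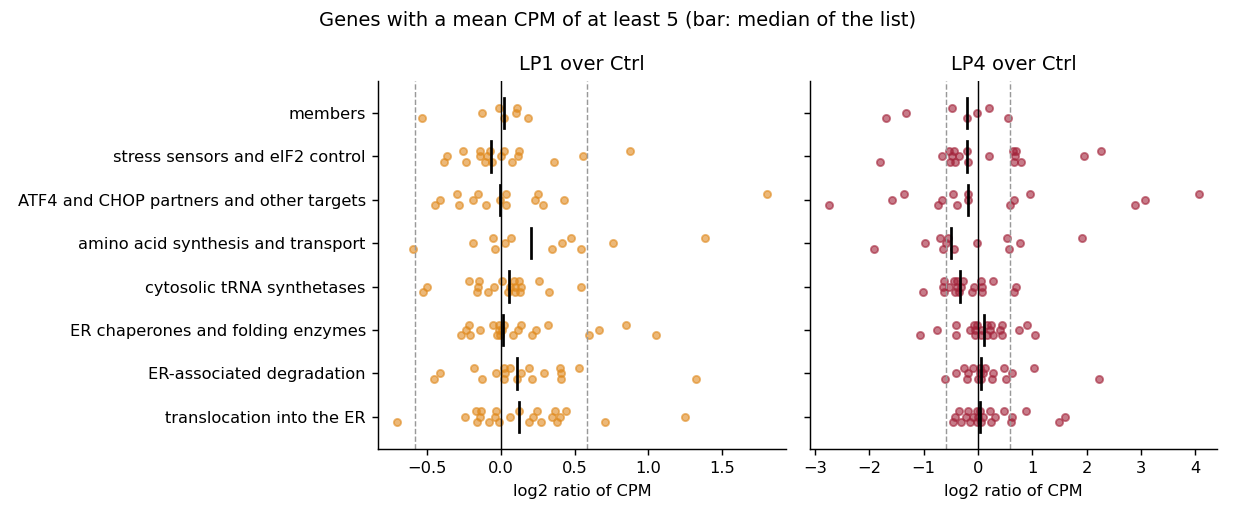
Log2 ratio of CPM of each gene with at least 5 CPM in the members and 7 lists, for LP1 over Ctrl (left) and LP4 over Ctrl (right); the bar is the list's median and dashed lines mark 1.5-fold. All list medians lie between -0.50 and 0.21, and single genes reach from -2.75 to 4.07 in LP4.

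Among the stress sensors and the controls of eIF2, 7 of 18 genes were higher and 2 lower in LP4 than in Ctrl, with a median log2 ratio of -0.19. *Ppp1r15b*, the constitutive partner of *Ppp1r15a* in the eIF2 phosphatase, was at 25.3 CPM in Ctrl, 23.0 CPM in LP1 and 122 CPM in LP4, a log2 ratio of LP4 to Ctrl of 2.26 (2.16 to 2.36). The paralogs thus went opposite ways. *Eif2ak2*, the eIF2 kinase PKR that senses double-stranded RNA and is induced by interferon, went from 71.4 CPM in Ctrl and 71.4 CPM in LP1 to 275 CPM in LP4. *Ern1*, which encodes the sensor IRE1, was lower, at 141, 144 and 40.6 CPM, a log2 ratio of -1.80 (-1.87 to -1.73), so the sensor and its substrate *Xbp1* also went opposite ways. *Eif2ak4*, the amino acid sensor GCN2, had a log2 ratio of -0.65. In LP1, 1 gene was higher, *Atf6b*, from 9.92 to 18.2 CPM, and none was lower.

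Among the partners of ATF4 and CHOP and their other targets, 6 of 15 were higher and 5 lower in LP4, with a median of -0.19. *Cebpb*, a bZIP factor that pairs with both and serves inflammatory genes, was at 98.8 CPM in Ctrl, 346 CPM in LP1 and 1657 CPM in LP4, log2 ratios of 1.81 and 4.07 to Ctrl. *Ddit4*, an inhibitor of mTORC1, went from 2.55 CPM and 2.10 CPM to 21.6 CPM. *Trib1*, a relative of *Trib3*, was at 110, 96.9 and 16.4 CPM, and *Sesn1*, a relative of *Sesn2*, at 34.9, 31.3 and 11.7 CPM, with log2 ratios of LP4 to Ctrl of -2.75 and -1.58.

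Of 12 genes for amino acid synthesis and transport, 2 were higher and 4 lower in LP4, with a median of -0.50. *Slc7a11*, the cystine importer, was at 304, 443 and 1153 CPM (log2 ratio 1.92), and *Mthfd2*, of mitochondrial folate metabolism, had a ratio of 0.78. *Pck2*, the mitochondrial enzyme for phosphoenolpyruvate, was at 12.4, 8.21 and 3.27 CPM (-1.92 in LP4 and -0.60 in LP1), and *Slc1a5*, a glutamine transporter, had a ratio of -0.98. In LP1, 2 genes were higher, led by the leucine transporter *Slc7a5* at 3.11, 8.14 and 4.64 CPM. Of 20 cytosolic tRNA synthetases, 2 were higher (*Hars* at 0.69 and *Wars* at 0.66) and 4 lower, led by *Sars* at -1.01 and *Eprs* at -0.65, with a median of -0.33; in LP1 none passed 1.5-fold.

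The ER lists changed little in the middle. Of 22 chaperones and folding enzymes, 3 were higher and 2 lower in LP4, with a median of 0.12. *Txndc5*, a protein disulfide isomerase, was at 15.5, 24.7 and 32.3 CPM, and *Sdf2l1*, a partner of BiP, at 29.1, 60.3 and 54.3 CPM. *Sil1*, the exchange factor of BiP, was lower at -1.07, as was the oxidase *Ero1lb* at -0.75. In LP1, 4 of the 22 were higher (18.2%, beside 4.17% of all genes), led by *Sdf2l1* at 1.05 (0.95 to 1.15). Of 19 genes for ER-associated degradation, 3 were higher, led by the ubiquitin ligase *Syvn1* (3.50, 8.77 and 16.5 CPM, 2.23), and *Os9*, a lectin, was lower at -0.61. *Syvn1* also led in LP1, at 1.32. Of 23 genes for translocation into the ER, 5 were higher and 0 lower in LP4, led by *Srp9*, of the signal recognition particle (72.0, 171 and 220 CPM), and *Ssr3*, of the translocon (55.2, 66.5 and 154 CPM). In LP1, 2 were higher, led by *Srp9* at 1.25, and *Sec61g* was lower at -0.71.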

How the data were processed

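The data are 1 droplet-based 3' single-cell RNA-Seq library each for Ctrl, LP1 and LP4. The authors aligned the reads to mm10 with Cell Ranger (version 7.1.0 per the submitters' processing notes) and deposited UMI counts per gene and barcode, not normalized, for the barcodes called as cells. Between libraries, 10, 7 and 4 barcode sequences were shared (Ctrl with LP1, Ctrl with LP4 and LP1 with LP4).

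A barcode was kept if it exceeded both 500 UMIs and 500 genes and its mitochondrial share was below 5%. No doublet caller was run, and leaving out the 5% of cells with most UMIs was an alternative. Counts were summed per library and scaled to CPM. Intervals were exact Poisson for levels, exact conditional binomial for ratios and Clopper-Pearson for shares. The floor for a gene at 0 is 3 counts over the cells. Depth was 35688939 to 61402275 UMIs per library. With 1 library per condition no test was made. Shares, correlations and variances used cells thinned to 2000 UMIs (seed 20).

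Clusters came from 2000 variable genes without any stress list gene, with 30 principal components and 20 neighbours (Leiden, resolution 0.5). Genes whose CPM differed by 1.5-fold or more between any of the libraries were left out, and each gene was centered within its library. Cells were thus matched across libraries on genes that differed less between them. The clusters were named from marker lists. Promoters came from RefSeq (GRCm38.p6, 10 of 10 members matched) and gene positions from GENCODE (GRCm38).

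The members and lists were chosen with earlier results of these data known. Genes named were the members, the 2 largest differences past 1.5-fold in each direction per list for LP4 over Ctrl and 1 for LP1 over Ctrl, and 10 genes each by the 2 rules for *Ddit3*-rich cells and likeness. The result for 1 gene chosen this way is not reported here. Scripts were tested on simulated data. The tools used were edgeR 4.0.16 under R 4.3.3 (for TMM factors only), leidenalg 0.10.2, scipy 1.17.1 and scikit-learn 1.9.0 under Python 3.11.15. Other cell filters, scalings, folds, minimums, depths and definitions were tried.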

Additional observations from a re-analysis of the deposited data

Results flagged for a closer look

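The barcodes that the mitochondrial limit removed, 18 in Ctrl, 43 in LP1 and 273 in LP4, were in no comparison. In 2 of the 30 values for the 10 members in these 3 sets of barcodes, the lower bound of the level's own interval lay above the intervals of both the kept Ctrl cells and the kept cells of the same library. *Hspa5* was at 1047 CPM (744 to 1431, 39 UMIs) in the Ctrl barcodes, against 715 CPM in kept Ctrl cells, and at 493 and 668 CPM in those of LP1 and LP4. *Herpud1* was at 44.8 CPM (23.9 to 76.7, 13 UMIs) in the LP1 barcodes, against 18.8 CPM in kept LP1 cells. No group has 4 or more libraries, so no library could be set apart from others of its group.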

How the results depend on the processing

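The count of members past 1.5-fold stayed at 0 for LP1 over Ctrl under all alternatives run. For LP4 over Ctrl, where it was 2, it was 4 with a minimum mean of 1 CPM and 5 with no minimum, and for LP4 over LP1, also 2, it was 4 under both and 1 at 2-fold (*Ppp1r15a*). *Sesn2* and *Trib3*, both lower, were those added. With no minimum *Chac1* was added too, higher in LP4 over Ctrl on 13 against 5 UMIs, with 6 of the 13 in neutrophil-like cells. *Xbp1* made it 3 for LP4 over Ctrl under the 4 alternatives named in the report. Leaving out all cells with at least 10 *Ddit3* UMIs, or cluster J, both chosen after seeing the data, kept both counts at 2. For the 7 lists, with 11 higher and 2 lower in LP1, no mitochondrial limit, TMM and median of ratios scaling each gave 1 lower, no minimum gave 7 lower, and 2-fold gave 5 higher and 0 lower. With 28 higher and 18 lower in LP4 over Ctrl, both scalings gave 8 lower, and 2-fold gave 11 higher and 7 lower. With 12 higher and 18 lower in LP4 over LP1, 2-fold gave 7 higher and 7 lower. For these alternatives no share of all genes is given beside the counts here. The counts are thus not read as a result about the members or the lists.

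The share of cells with a *Ddit3* UMI in Ctrl, LP1 and LP4 was 2.18%, 1.97% and 1.07% with cells thinned to 1000 UMIs, 9.03%, 7.14% and 4.25% at 4000 and 12.1%, 14.9% and 12.0% with no thinning, so the order of Ctrl over LP1 holds only at equal depth. The share of *Ddit3* UMIs in the highest cells was 21.3%, 20.1% and 15.3% for 10 cells, 32.0%, 31.6% and 29.6% for 50 cells and 19.9%, 19.5% and 9.13% for the cells with at least 10 UMIs, by construction. Of the 10 genes most like *Ddit3*, 5 remained with thinning to 4000 UMIs, 6 in macrophage-like clusters alone and 2 without the 20 highest cells of each library. The cause was not tested unless stated. No paired analysis was possible because each condition has 1 library.

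The main limit is that 1 library per condition cannot tell treatment from preparation. LP4 differs in depth and cluster shares, and the *Ddit3*-rich cells are few, with 1 to 18 UMIs behind most values for *Trib3*, *Sesn2*, *Asns* and *Herpud1*.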
